A study of Mus musculus with 6 samples.

Results

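The SOX proteins are transcription factors that bind DNA through an HMG box related to that of the sex-determining factor Sry. Their mRNAs were followed here in lung epithelial cells with reduced Nkx2-1. The 10 genes considered were Sox2, Sox4, Sox9, Sox11, Sox12, Sox13, Sox15, Sox17, Sox18 and Sox21. They were chosen by name among the 19938 genes that have at least 1 transcript cluster (a set of array probes for a transcript) with a single gene symbol. Each of the 10 had exactly 1 such transcript cluster, so no choice between clusters was needed. MLE15 cells come from lung tumors of mice in which the human surfactant protein C promoter drives the SV40 large T antigen, and both groups carry that transgene. In 3 lines, called knock-down lines here, the cells had received a lentivirus mix of 3 pLKO.1 shRNAs against Nkx2-1, and in 3 control lines the empty pLKO.1 lentivirus, which the study calls non-silencing control. Both groups were selected with puromycin. The methods describe independently transduced stable lines, whereas the labels give a time of 48 h.

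SOX factors act with partner proteins, and the groups of the family differ in what they do. In the developing lung, Sox2 marks the proximal endoderm that forms the airways, and Sox9 marks the distal tips that go on branching. The group C factors (Sox4, Sox11 and Sox12) are activators found in many progenitor cells, the group F factors (Sox17 and Sox18) serve endoderm and vessels, and Sox13, Sox15 and Sox21 belong to groups D, G and B. Nkx2-1 is the homeobox factor of lung endoderm.

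After Nkx2-1 knock-down Sox2 fell to 13.1% of control, Sox12 fell to 70.2%, and Sox9, Sox4 and Sox13 rose to 1.71, 1.50 and 1.25 times control. The remaining 5 genes did not pass the test. Values are on the log2 scale, as the authors' Robust Multi-Array Analysis gives them. A gene was called at a limma adjusted p (Benjamini-Hochberg over all 35557 transcript clusters) under 0.05. At that threshold 3 SOX genes were higher and 2 lower, where of all transcript clusters 7.61% were higher, 9.24% lower and 16.8% either. Of the 10 genes, 8 exceeded a background limit of 4.35 in at least 1 group, and 5 of these 8 were called. For that limit 1244 transcript clusters of chemosensory receptors, which lung cells hardly use, were pooled and the 95th percentile of their values taken. Among all genes above it 15.3% were higher and 13.9% lower, 29.2% in all. The 10 genes were chosen with earlier results of these data known. Of the 9 other SOX genes on the array, 8 were above the limit, several of them by little, and 0 were called. The median log2 fold change of the 10 genes was −0.0644 (−0.0294 over all transcript clusters), and 0.016 when each array was centred on its median.

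The sequences upstream of the SOX genes are shown because the members went in opposite directions. The RefSeq promoter table of build GRCm38.p6 held 7 of the 10 genes. For Sox2, Sox12 and Sox4 the 250 bases before the start of the gene are given, 5′ to 3′ on the strand of the gene. They lie at chr3:34649745-34649994 on the plus strand, chr2:152398047-152398296 on the minus strand and chr13:28953700-28953949 on the minus strand. Capitals mark a match to ACAAAG, a core bound by SOX factors, in Sox2, and matches to CAAG or CTTG, the core of the NKX2-1 site on either strand, in the other genes.
Sox2, fell: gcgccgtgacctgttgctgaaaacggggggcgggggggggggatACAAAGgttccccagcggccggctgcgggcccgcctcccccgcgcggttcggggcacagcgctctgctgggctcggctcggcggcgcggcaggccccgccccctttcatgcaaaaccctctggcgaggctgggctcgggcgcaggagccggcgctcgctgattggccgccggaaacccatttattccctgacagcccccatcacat
Sox12, fell: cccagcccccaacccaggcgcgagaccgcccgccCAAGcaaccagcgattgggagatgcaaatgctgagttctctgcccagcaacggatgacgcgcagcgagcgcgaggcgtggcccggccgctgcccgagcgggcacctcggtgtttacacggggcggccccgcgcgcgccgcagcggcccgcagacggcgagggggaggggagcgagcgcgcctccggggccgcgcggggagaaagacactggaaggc
Sox4, rose: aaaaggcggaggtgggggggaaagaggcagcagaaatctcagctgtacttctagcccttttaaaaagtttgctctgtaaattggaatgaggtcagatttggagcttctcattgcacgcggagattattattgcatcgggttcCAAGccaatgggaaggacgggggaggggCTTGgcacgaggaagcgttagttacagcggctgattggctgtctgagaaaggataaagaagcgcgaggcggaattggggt
The NKX2-1 core was found 0 times in the Sox2 window, 1 time in that of Sox12 and 2 times in that of Sox4, and 0 times in the window of Sox13, which rose. Among genes that were not called it was found 3 times for Sox15, 1 time for Sox21 and 0 times for Sox11. It occurred in 86.6% of the 32841 windows of the same length in the table, so that a match is common. ACAATG or ACAAAG on either strand, words that do not contain the NKX2-1 core, occurred 1 time in the Sox2 window, 0 times in those of the other 6 genes and in 25.2% of all windows. These windows were 72.0% G or C for Sox2, 74.4% for Sox12, 72.4% for Sox13 and 50.8% for Sox4. Matches are descriptions of letters and binding was not measured on these arrays.

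**Figure D1:**
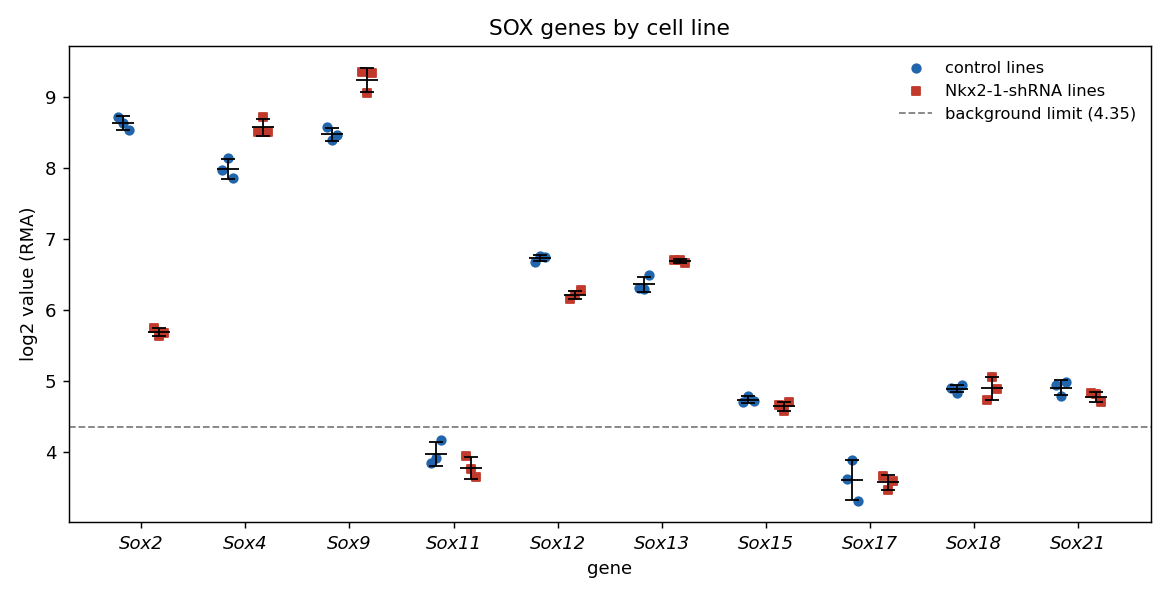
Log2 values (vertical axis) of the 10 SOX genes (horizontal axis) for 3 control lines as blue circles and 3 Nkx2-1-shRNA lines as red squares, black bars for group mean and SD, and the background limit of 4.35 dashed. Sox2 drops from 8.63 to 5.69 and remains above the limit, while Sox11 and Sox17 lie below it in both groups; heights of different genes come from different probes and are not comparable.

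Sox2 was the member with the largest change. It read 5.75, 5.64 and 5.68 in the knock-down lines and 8.72, 8.63 and 8.53 in the control lines. The groups were 2.78 apart at their nearest lines, far more than the spread within either (SD 0.0551 and 0.0955, n = 3). The log2 fold change was −2.94 (SE 0.084, limma adjusted p = 2.8e-05), or 0.131 times control (0.114 to 0.150, 95% confidence interval). Sox2 was 11th in size among the falls of all 19938 genes. It was also the only SOX gene to pass the threshold of the study when that was applied to the limma adjusted p. The threshold is an adjusted p under 0.0005 and a log2 fold change beyond 0.6. Of all transcript clusters 0.456% passed as lower, 0.804% as higher and 1.26% in all. The study applied it to its own test and reports more genes, so its list can hold SOX genes that did not pass here. By an exact permutation test the p of Sox2 was 0.1, the smallest that 3 lines against 3 can give and the value for each of the 5 called genes. The targeted gene itself changed less. Nkx2-1 had values of 7.91, 7.98 and 7.83 against 8.61, 8.61 and 8.59, a log2 fold change of −0.69 (SE 0.076, limma adjusted p = 0.00155).

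The study lists Sox2, and none of the other 9 members, among targets of the microRNA miR-200c predicted from sequence. It also names Sox2 among the predicted targets whose mRNA fell in the knock-down cells. For Sox2 as a target it cites experiments in human cells. The mature microRNA is shown for its seed, the bases that pair with a target, in capitals (RefSeq, GRCm38.p6, chr6:124718324-124718346, minus strand).
mmu-miR-200c-3p: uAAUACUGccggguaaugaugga
Mature microRNA was not measured on these arrays, and the separate microRNA arrays run on these lines were not used here. The transcript cluster of its gene, Mir200c, looked up after the other values had been seen, read below background in each group (3.67 ± 0.144 and 3.79 ± 0.182, SD, n = 3). At that signal neither group can be placed above background.

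Sox9, the factor of the distal tips and of cartilage, went the other way. It read 9.35, 9.05 and 9.34 in the knock-down lines and 8.57, 8.39 and 8.46 in the control lines. Every knock-down line was above every control line, by at least 0.48. The log2 fold change was 0.77 (SE 0.109, 95% confidence interval 0.51 to 1.03, limma adjusted p = 0.00434). Within an array, the log2 ratio of Sox9 to Sox2 signal therefore shifted by 3.71 from control to knock-down, with 3.47 between the nearest lines. Each gene already had separate groups, in opposite directions, so this separation follows from them and is no further test. A ratio of signals from different probes gives the shift and not which mRNA was more abundant.

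The group C genes did not move together. Sox4, an activator in progenitor and tumor cells, stood at 8.51, 8.72 and 8.50 in the knock-down lines and 7.97, 8.14 and 7.86 in the control lines. The groups did not overlap, and the log2 fold change was 0.59 (SE 0.107, limma adjusted p = 0.0119). Sox12, its close relative and a weaker activator, stood at 6.16, 6.21 and 6.28 against 6.68, 6.76 and 6.74. All 3 knock-down lines were below all control lines, a log2 fold change of −0.51 (SE 0.0762, limma adjusted p = 0.00543). The log2 ratio of Sox4 to Sox12 signal therefore rose by 1.10, with 0.84 between the nearest lines, which again is no further test. Sox11, the third gene of the group and best known from neural progenitors, was below the background limit throughout. Its lines ran from 3.65 to 4.17 and overlapped (log2 fold change −0.19, interval −0.48 to 0.09).

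Sox13 of group D has no activation domain of its own and was first known as an autoantigen. It read 6.70, 6.71 and 6.66 in the knock-down lines and 6.31, 6.30 and 6.49 in the control lines. The groups were 0.17 apart, and control 3 lay nearest to the knock-down lines. The log2 fold change was 0.33 (SE 0.0844, limma adjusted p = 0.0419). This call was the least secure of the 5. It was lost whenever 1 line other than control 3 was left out (adjusted p 0.0972 to 0.131), and with the unmoderated test of the methods (adjusted p = 0.0580).

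The group F genes showed little signal. Sox17, a factor of definitive endoderm and arteries, did not exceed the background limit in either group, with lines from 3.32 to 3.89 and a difference of −0.03 on the log2 scale (interval −0.39 to 0.32). Sox18, a factor of blood and lymphatic vessels, lay slightly above the limit at 4.74 to 5.06, with a difference of 0.01 (interval −0.23 to 0.25). Both genes had overlapping groups. Of 8 markers of endothelium, 4 (Pecam1, Cdh5, Kdr and Emcn) were below the limit in both groups. The angiopoietin receptor gene Tek fell from 5.77 to 3.77, below the limit, and the clotting factor gene Vwf rose by 0.41. The summed log2 values of the 8 markers ran from 34.62 to 35.75 in the knock-down lines and from 36.23 to 37.04 in the control lines. The fall of Tek is part of these sums, and the median log2 fold change of the 8 was 0.0259.

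Sox21 of group B, a repressor that counters Sox2 in several tissues, had values of 4.83, 4.82 and 4.70 against 4.94, 4.79 and 4.99. The log2 fold change was −0.13 (95% confidence interval −0.34 to 0.09, limma adjusted p = 0.422), and the groups overlapped. Sox15, the only gene of group G and active in muscle progenitors, read 4.66, 4.58 and 4.70 against 4.71, 4.79 and 4.72. Its groups were separate by 0.01 only, and the change of −0.10 (95% confidence interval −0.28 to 0.08, limma adjusted p = 0.472) did not pass. Both genes stood little above the background limit, where arrays compress differences. In all, the groups did not overlap for 6 of the 10 SOX genes, with 3 above control and 3 below, against 34.9% of all transcript clusters (15.1% above and 19.8% below).

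**Figure D2:**
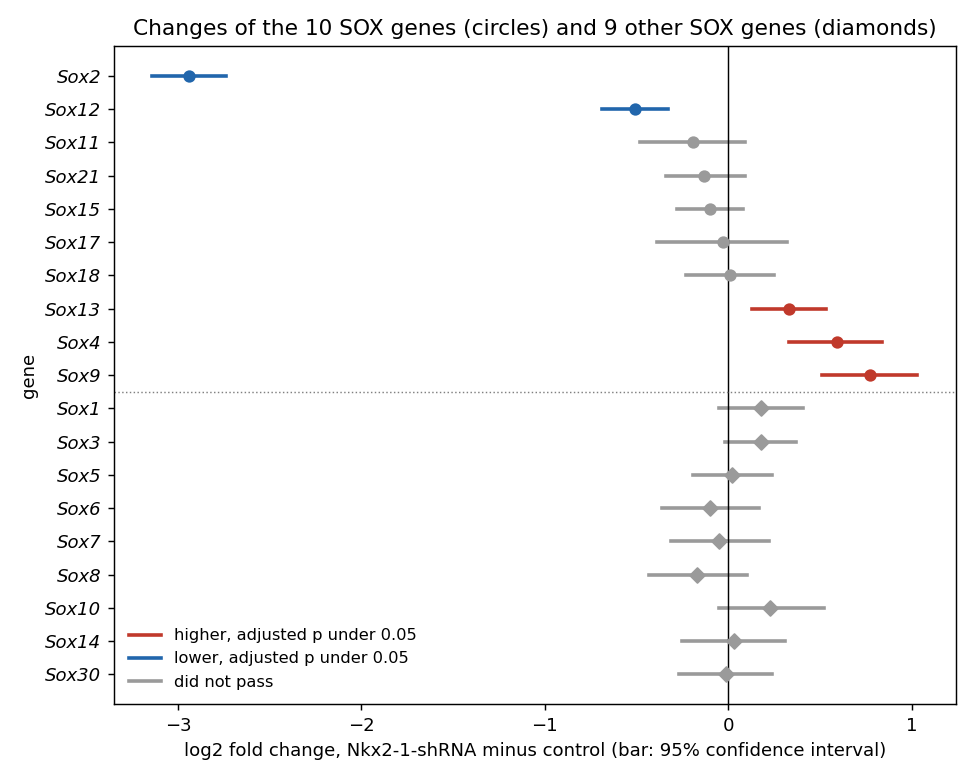
Log2 fold changes (horizontal axis, Nkx2-1-shRNA minus control, n = 3 lines each) with 95% confidence intervals of the 10 SOX genes (circles) and 9 other SOX genes (diamonds), red where higher, blue where lower and grey where the test was not passed. Sox2 at −2.94 stands alone on the left, Sox12 is at −0.51, Sox13, Sox4 and Sox9 run from 0.33 to 0.77, and the intervals of the 9 other genes all include 0.

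The 9 other SOX genes on the array were compared as a reference for the family. By limma 0 were called in either direction, 0 had an unadjusted p under 0.05, and the unmoderated tests called 0. Their log2 fold changes ran from −0.17 to 0.23 with a median of 0.0245, and 8 of the 9 exceeded the background limit. Sox1, a neural relative of Sox2 and also among the predicted targets of miR-200c, had a log2 fold change of 0.18 (limma adjusted p = 0.283). The following relatives are named with their values known. Sox3, the third activator of the same group B, was at 0.18 (interval −0.02 to 0.37). Sox8 and Sox10, which form group E with Sox9 and serve gonad and neural crest, were at −0.17 (−0.43 to 0.10) and 0.23 (−0.05 to 0.52). Sox5 and Sox6, the cartilage factors of group D beside Sox13, were at 0.02 (−0.19 to 0.24) and −0.10 (−0.36 to 0.17). Sox7, of group F, was at −0.05 (−0.31 to 0.22). Within groups B, E and D the called member thus stood beside relatives that did not pass, and the differences between relatives were not tested. Sox5, Sox6, Sox7, Sox8 and Sox10 had group means from 4.29 to 5.03, near the background limit, where arrays compress differences. For these genes a change could be missed at this signal. Sox1 and Sox3 stood higher, at means of 6.3 and 6.06 in the control lines.

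The genes with which SOX factors work were read from lists, and each is described by counts alone. Of all 35557 transcript clusters 7.61% were higher and 9.24% lower at a limma adjusted p under 0.05. At an unadjusted limma p under 0.05, 4431 of them were higher and 6087 lower. Of 8 measured Sox2 partners of stem cells and neural tissue, 1 was higher and 0 lower (median log2 fold change 0.0534), and at an unadjusted p under 0.05 these counts were 3 and 0. The called gene was Nanog, a pluripotency factor gene whose array signal may include its pseudogenes, at 0.38 (SE 0.095, limma adjusted p = 0.0386). Pou5f1, which encodes the classical partner Oct4, read 5.86, 5.74 and 5.31 in the knock-down lines and 5.08, 5.05 and 4.44 in the control lines. The groups did not overlap, but the log2 fold change of 0.78 missed the threshold (limma adjusted p = 0.0505). It passed when the arrays were centred on their median (adjusted p = 0.0416) or quantile normalized again (adjusted p = 0.0404), which made the count 2.

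Of 9 measured airway lineage genes, which mark the cell types that arise in the Sox2 domain, 0 were called by limma (median 0.0185), with 1 higher and 1 lower at an unadjusted p under 0.05 and 0 by the unmoderated tests. Of them 5 exceeded the background limit in at least 1 group, Cyp2f2 only in the knock-down lines. For the genes below the limit in the control lines a fall could be missed at this signal. Trp63, the factor of basal cells, stood little above the limit (4.74 in the control lines). It had a log2 fold change of 0.12 (limma adjusted p = 0.524).

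The 9 genes of the distal tip, the Sox9 domain, were all above background, and 3 were higher and 4 lower (median −0.302). Among all genes above background 15.3% were higher and 13.9% lower. Id2, an inhibitor of basic helix-loop-helix factors, read 9.66, 9.79 and 9.83 in the knock-down lines and 8.53, 8.77 and 8.68 in controls. Its log2 fold change was 1.10 (SE 0.0946, limma adjusted p = 6.2e-04), and the groups were far apart. The Wnt ligand gene Wnt7b read 6.68, 6.44 and 6.64 against 5.45, 5.44 and 5.26 and rose by 1.20 (SE 0.101, limma adjusted p = 5.7e-04). The ligand gene Bmp4 rose by 0.63 (limma adjusted p = 0.00671). Mycn, a driver of tip cell proliferation, read 6.53, 6.82 and 6.45 against 7.80, 7.82 and 7.45. It was lower in every knock-down line, a log2 fold change of −1.09 (SE 0.144, limma adjusted p = 0.00325). The other lower genes, named with their values known, were Etv4 (−0.43), Spry2 (−0.41) and Shh (−0.30). Their limma adjusted p were 0.0107, 0.0205 and 0.0406. Genes of this list thus rose and fell beside Sox9, and when the arrays were centred or normalized again 3 rather than 4 were lower.

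Among 7 cartilage genes that Sox9 activates in chondrocytes 0 were higher, also at an unadjusted p under 0.05, and 1 was lower, the link protein gene Hapln1, which was below background in both groups. Of the 7 genes 3 exceeded the background limit, so that for the others a rise could be missed at this signal. The collagen gene Col2a1, the best known of these targets, had a log2 fold change of 0.06 (limma adjusted p = 0.637). Of 4 genes linked to group C factors, Tead2, a partner of YAP, fell by 0.45 (limma adjusted p = 0.0150) and the other 3 were not called. At an unadjusted p under 0.05, 2 of the 4 were lower and 0 higher. Of 4 genes linked to group F factors 0 were called by limma, with 1 higher and 0 lower at an unadjusted p under 0.05. The endothelial claudin gene Cldn5 was at −0.06.

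Of 9 measured TCF and LEF factors and beta-catenin cofactors, whose HMG boxes or partners bring them together with SOX factors, 1 was higher and 0 lower (median −0.0753), with 2 lower at an unadjusted p under 0.05. Tcf7l2, a nuclear effector of Wnt signaling, read 8.32, 8.20 and 8.45 in the knock-down lines and 7.77, 7.64 and 7.90 in the control lines, a log2 fold change of 0.55 (SE 0.105, limma adjusted p = 0.0138). Its groups did not overlap. Of 14 other measured HMG-box genes, 2 were higher and 3 lower (median −0.0675). The cell cycle repressor gene Hbp1 rose by 1.13 (limma adjusted p = 6.5e-04) and Bbx, named after its value was seen, by 0.44 (limma adjusted p = 0.0385). The genes of the mitochondrial DNA packaging factor Tfam, the chromatin remodeling subunit Smarce1 and the chromatin protein Hmgb1 fell by 0.62, 0.59 and 0.49. Smarce1 had 3 transcript clusters with a single symbol, and only the one with the highest mean was read. With centred arrays 2 rather than 3 of this list were lower. The signs of both medians turned when each array was centred on its median (0.00503 and 0.0129).

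**Figure D3:**
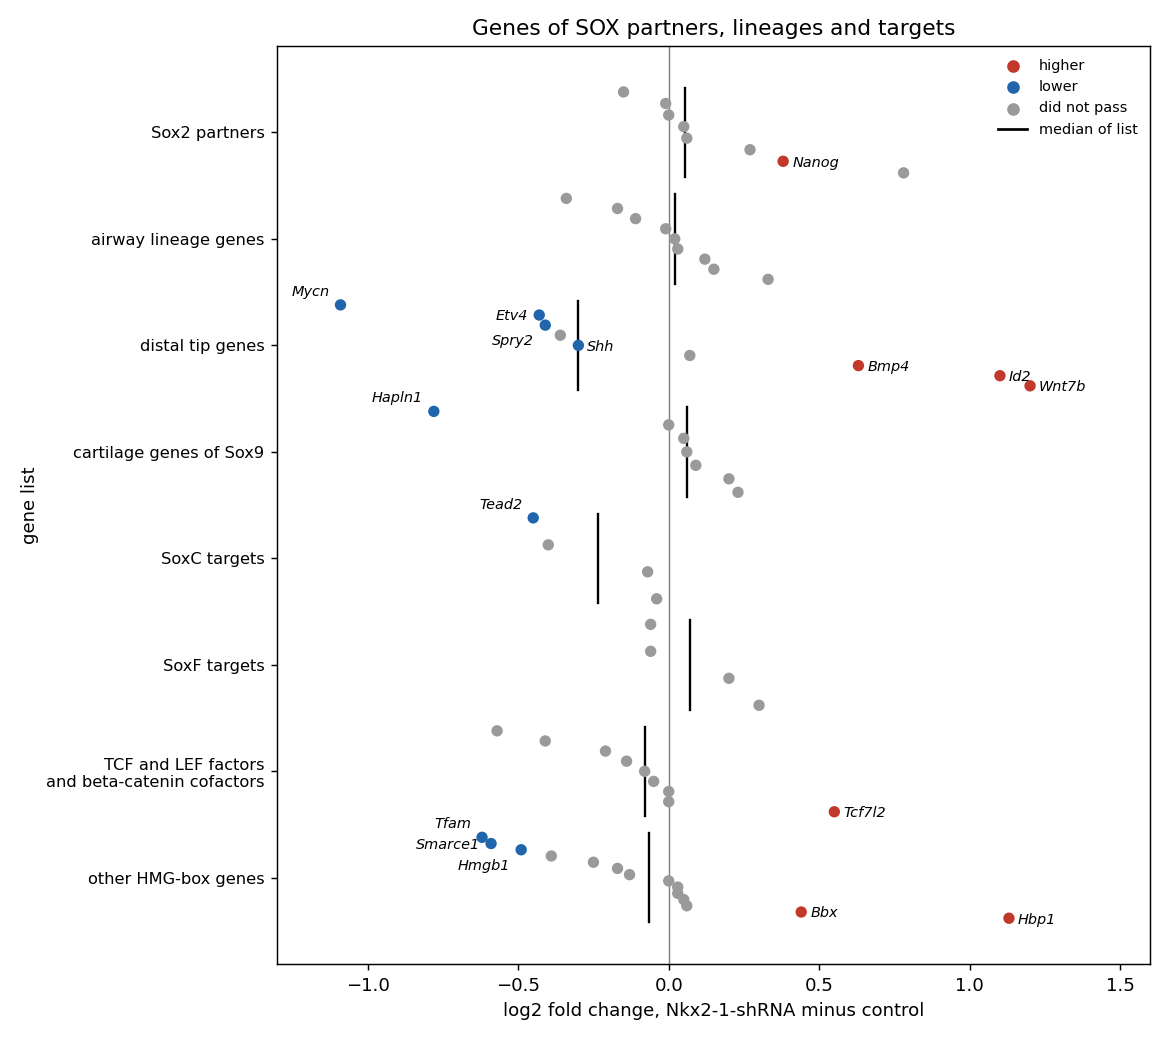
Log2 fold changes (horizontal axis, Nkx2-1-shRNA minus control) of genes in 8 lists (vertical axis), 1 point per gene, red where higher, blue where lower and grey where the test was not passed, with the median of each list as a black line. The distal tip genes spread from −1.09 (Mycn) to 1.20 (Wnt7b), and no airway lineage gene is colored.

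The neighbors of the called SOX genes were examined by gene order, with the 10 nearest measured genes on each side. For comparison, 15.3% of all genes above background were higher and 13.9% lower. Around Sox2, 12 of 20 neighbors were above background, with a median log2 fold change of 0.112, and 2 were higher and 1 lower. Named with their values known, these were the flippase gene Atp11b (0.55), the annexin gene Anxa5 (0.89) and the carboxylase gene Mccc1 (−0.46), the lowest of the 12 against −2.94 for Sox2. The nearest, the mitochondrial import gene Dnajc19, was at 0.16 and the predicted gene Gm6639 was below background at 0.00. Around Sox9 0 of 11 neighbors above background were called (median −0.118), and around Sox4 2 of 8 were higher (median −0.00945). The nearest to Sox9, BC006965 and Gm11681, were at −0.09 and −0.14, and the nearest to Sox4, Prl5a1 and the enzyme gene Cdkal1, at −0.21 and 0.08. Next to Sox12 the zinc finger gene Zcchc3 fell by 0.43 (limma adjusted p = 0.00927), close to the −0.51 of Sox12, while Nrsn2 on the other side was at 0.05 and the median of 13 neighbors was −0.0217. Of those 13, 2 were higher and 1 lower, and the higher genes, Trib3 (1.86) and Slc52a3 (1.05), named with their values known, moved further than Sox12 and the other way. Around Sox13 the median of 16 neighbors was 0.0181, with Kiss1 at −0.05 and Snrpe at 0.23 beside it. Of those 16, 1 was higher (Plekha6, 0.85) and 2 were lower (Prelp, −1.29, and Btg2, −0.56), all by more than Sox13 and also named with their values known. In size, the changes of Sox2 and Sox9 exceeded those of all their neighbors above background. The changes of Sox4, Sox12 and Sox13 did not, and the forkhead gene Foxq1 near Sox4 was at 0.68 against 0.59.

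**Figure D4:**
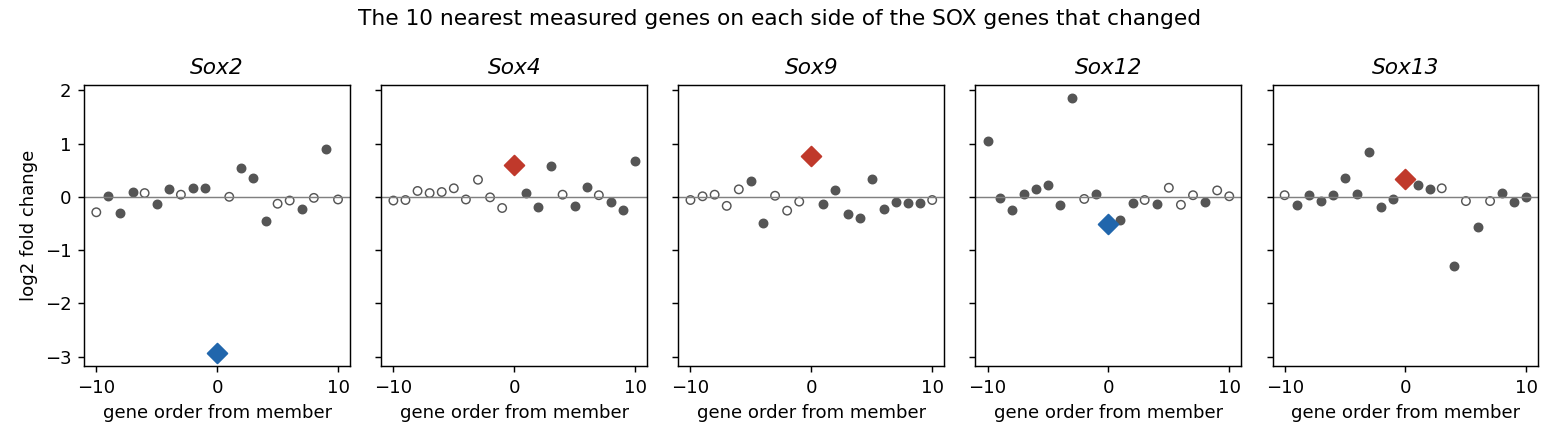
Log2 fold changes (vertical axis) of the 10 nearest measured genes on each side (horizontal axis, gene order counted from the SOX gene at 0), for the 5 SOX genes that passed the test (colored diamonds), with filled circles above and open circles below background. No neighbor of Sox2 above background falls under −0.46, while Sox2 itself is at −2.94.

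The genes whose values followed those of Sox2 most closely over the 6 arrays were the nuclear receptor gene Rorb and the potassium channel gene Kcnh5 (Pearson r 0.9996 each), the polarity gene Pard3 and the sulfotransferase gene Chst4 (0.9994 each) and the folate enzyme gene Aldh1l1 (0.9992). Rorb went from a mean of 9.48 in the control lines to 4.30 in the knock-down lines, which is below the background limit, so that its fall has no exact size. The log2 fold changes of the others, in that order, were −1.74, −2.55, −1.40 and −1.77. Since the arrays form separate groups, r reflects mostly the difference between them, and 246 of 13558 genes above background had an r over 0.99.

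**Figure D5:**
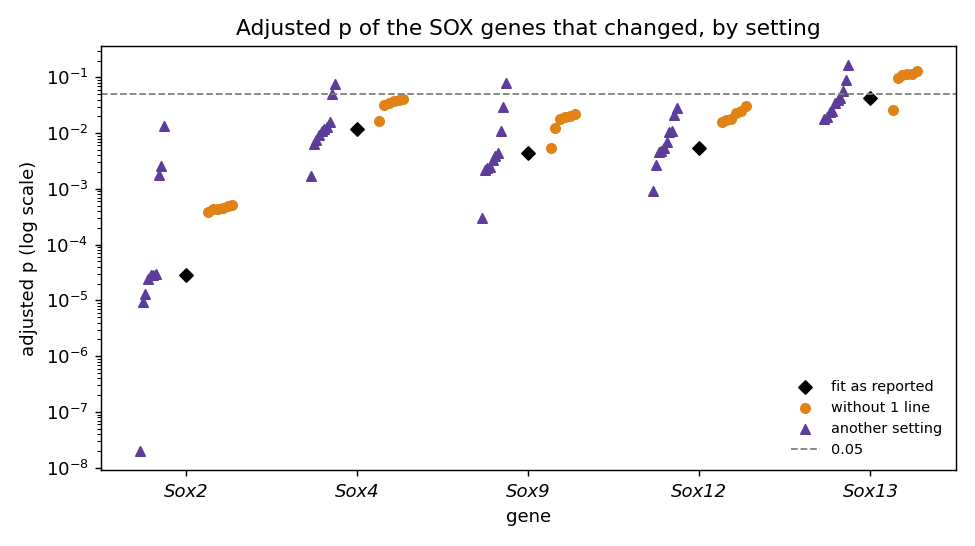
Adjusted p (vertical axis, log scale) of the 5 called SOX genes (horizontal axis) in the fit as reported (black diamonds), without 1 line (orange circles) and in another setting (purple triangles), with 0.05 dashed. All points of Sox2 and Sox12 lie under the line (up to 0.0133 and 0.0306), Sox4 and Sox9 have 1 point each above it, and Sox13 straddles it.

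Across the series, array medians were between 5.10 and 5.21, and correlations over transcript clusters were 0.991 to 0.994 within groups and 0.979 to 0.983 between them. Of 8 lung epithelial markers all exceeded background in at least 1 group. Of these, 2 rose (Krt19 by 1.19 and Krt18 by 0.44) and 2 fell (Nkx2-1, and Sftpc from 7.73 to 4.08, below the background limit). The summed log2 values of the 8 were 78.54 to 79.76 in the knock-down and 80.86 to 81.76 in the control lines. The fall of Sftpc is part of these sums, and the median log2 fold change of the 8 was 0.131. Of 7 fibroblast markers (Col1a1 0.09) and 3 measured neuroendocrine markers 0 were called by limma, also at an unadjusted p under 0.05. Of 5 leukocyte markers only Csf1r was called, below background in both groups, and Ptprc had a log2 fold change of −0.21. These summed to 30.70 to 31.31 against 30.60 to 31.03 for fibroblast, 14.54 to 14.98 against 14.59 to 14.95 for neuroendocrine and 18.36 to 18.76 against 18.46 to 19.34 for leukocyte markers in the knock-down and control lines. The part of any of these markers in the SOX results was not tested. Fewer cells with an mRNA and less of it per cell cannot be told apart in such bulk RNA.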

How the data were processed

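Total RNA of 3 Nkx2-1-shRNA and 3 control MLE15 lines was measured on 6 Mouse Gene 1.0 ST arrays (Affymetrix), 1 per line. Gene-level values were made by the authors in Expression Console 1.1 (RMA: background correction, quantile normalization, summary per transcript cluster), and the deposited values are log2 values, used as they stand. RMA compresses differences near background. Genes were read from 21789 transcript clusters with 1 symbol. Groups were compared with limma 3.58.1 in R 4.3.3 (lmFit, eBayes, 4 residual and 2.86 prior degrees of freedom), and p-values measure the spread between lines. The members, 15 lists and naming rule were chosen with earlier results of these data known. The rule named all members, up to 4 called genes and the first gene of a list, nearest neighbors and 5 genes most like Sox2. Called genes past 4 were named with their values known. Some listed genes were not analysed here. Replicate numbers were not treated as pairs (correlations 0.0575, 0.136 and −0.0342). The fits were tested on simulated data. Precision is limited by the number of arrays. Alternatives were other tests, priors, weights, normalizations, filters, a block and each line left out.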

Additional observations from a re-analysis of the deposited data

How the results depend on the processing

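Sox2 and Sox12 kept their direction and their call in 16 of 16 alternatives, with log2 fold changes of −2.98 to −2.86 and −0.54 to −0.43. Sox4 and Sox9 kept theirs in 15 of 16 (0.51 to 0.67 and 0.72 to 0.87), the exception being the t-test for unequal variances (adjusted p = 0.0761 and 0.0789). Sox13 was called in 8 of 16 (0.29 to 0.41). That t-test left 0 SOX genes higher and ended the call of Nkx2-1 (−0.69, adjusted p = 0.0550). At the threshold of the study, applied to the limma adjusted p, 0 were higher and 1 lower. Without 1 line, 2 to 3 SOX genes were higher and 2 lower, and Nkx2-1 stood between −0.73 and −0.66. With replicate number as a block 2 were higher and 2 lower, and only the call of Sox13 among the 10 genes changed (adjusted p = 0.0881). Sox2 partners had 2 genes higher with centring on the median or repeated quantile normalization. The 5 genes that were not called passed in none of their alternatives. Sox17 and Sox18 changed sign among them without a call (−0.17 to 0.11 and −0.07 to 0.09). Genes near the background limit have compressed changes, so smaller shifts of Sox11, Sox15, Sox17, Sox18 and Sox21 were not detectable at this signal.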
